A study of Mus musculus with 5 samples.

Results

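The mitochondrial ribosomal protein genes were taken as every row of the deposited expression table whose symbol is Mrpl or Mrps followed by a number and at most 1 letter. The rule found 76 of the 23420 rows, 47 named Mrpl and 29 named Mrps. Mrpl23 was exactly 0 in all libraries and was left out, so 75 remained. The table holds 5 polyA RNA sequencing libraries from mouse forebrain at postnatal day 8, each made from live cells (without propidium iodide stain) sorted for CD11b. In 3 libraries the labels give the conditional knockout genotype Cx3cr1CreERT2/+:Stat3fl/fl, and in 2 they give littermate controls, Stat3fl/fl, with no Cre. Floxed Stat3 is common to both groups. Tamoxifen on postnatal days 1 to 3 is stated for the Cre-carrying mice. The treatment field of the labels reads untreated, and whether the controls had tamoxifen is not given in the sources used here. Cre sits at Cx3cr1, which is active in microglia and in other mononuclear phagocytes, so the labelled knockout pups also have 1 disrupted Cx3cr1 copy. Each library pools 2 to 4 pups of the same genotype, males and females together. The comparison asks how postnatal microglia, the brain's resident macrophages, differ when the transcription factor STAT3 is lost.

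Mitochondria carry their own ribosome, which translates the few mRNAs of the mitochondrial genome into core subunits of the respiratory chain and ATP synthase. Its proteins are all encoded in the nucleus, made in the cytosol and imported, those of the large subunit mostly under Mrpl symbols and those of the small subunit mostly under Mrps symbols. Some have a counterpart in the bacterial ribosome, and the others are found in mitochondrial ribosomes and not in bacterial ones. Their genes are expressed in nearly all cell types, and the transcription factors NRF1, GABP and YY1 are known to act on promoters of many nuclear genes for mitochondrial proteins.

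Values are log2 expression, a scale inferred from the values, centred for each gene on a number that is not part of the table. They therefore compare libraries within a gene and never levels between genes. A gene without reads takes a recognisable value of its own in each library, called its 0-read value here, and genes at it in 4 or 5 libraries were not tested. Depth per library is unknown. Stat3 was 0.96, 0.07 and 0.24 in labelled knockout libraries 1, 2 and 3 and 0.08 and 0.45 in controls 1 and 2, a difference of 0.17 (SE 0.43), so the values do not show the labelled loss. The value covers the whole gene, and the labels do not say which exons are floxed. Cx3cr1 was lower in each labelled knockout library, at 3.00 to 3.36 against 3.95 and 4.32 (difference -0.90, SE 0.39, limma adjusted p = 0.64). All 15 microglia markers were tested, 6 higher and 9 lower in the labelled knockout libraries, with a median difference of -0.12 beside 0.13 for all tested genes. Among lymphocyte markers with a row, 0 of 8 could be tested, and among neuron markers 3 of 9. Of 13 monocyte markers 8 were tested, all with a difference above 0 (beside 59.9% of all tested genes). Their median was 0.90, and 4 were higher at an unadjusted limma p under 0.05 (beside 5.55% of all tested genes). Their mean ran from 0.60 to 1.26 in the labelled knockout libraries against -0.31 and 0.20 in the controls. The other 5, Ly6c2 and Chi3l3 among them, were at 0 or at the 0-read value in 4 or 5 libraries. Of 12 neutrophil markers 7 were tested, 6 with a difference above 0 (85.7%, median 0.92), with means of 0.60 to 1.25 against 0.03 and 0.06. The other 5, Elane, Mpo and Camp among them, were not tested for the same reason. Of 8 border macrophage markers 6 were tested, 4 with a difference above 0 (66.7%, median 0.64), with means of 0.77 to 1.17 against 0.42 and 0.52. In these 3 lists 0 markers passed the adjusted threshold in either direction. How many of their tested markers had both controls at the 0-read value, and so could only come out higher, was not counted. The part of these cells in the results below was not tested, and in bulk RNA fewer cells of a type and less RNA per cell cannot be told apart.

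Many mitochondrial ribosomal protein genes had too few reads to be compared. Mrpl21, Mrpl22, Mrpl35, Mrpl46, Mrps10, Mrps33 and Mrps36 were at the 0-read value in all 5 libraries. A further 13 members were above it in 1 library, which was control 1 for Mrps6, control 2 for Mrps18c and a labelled knockout library for the other 11 (84.6%, beside 76.8% of the 2379 genes of the whole table above it in 1 library). Mrps14, which lies in the head of the small subunit, stood at 0.96 in labelled knockout library 3 and between -0.29 and -0.31 in the others. Mrpl32 stood at 1.02 in labelled knockout library 2 and between -0.10 and -0.11 in the others.

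This left 55 members for the test, 35 Mrpl and 20 Mrps, which is 72.4% of the family beside 39.9% of all rows. Of these, 15 were at the 0-read value in 3 libraries and 15 in 2. The 55 were found at that value 9 times in labelled knockout library 1, 12 times in library 2, 13 times in library 3, 23 times in control 1 and 18 times in control 2. A single library at this value cannot be recognised, so these counts are lower bounds. Both controls were at it for 13 members (23.6%, beside 14.6% of the 9348 tested genes). All labelled knockout libraries were at it for 2 members, Mrps9 and Mrpl4 (3.64%, beside 0.481%). The former 13 entered the test through the labelled knockout libraries alone and had to have a difference above 0, and the latter 2 entered through the controls alone and had to have one below 0. The direction of these 15 members is therefore set by the filter and is no support for a difference.

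No member differed between the groups at the threshold. At a limma adjusted p under 0.05, 0 members were higher and 0 were lower (0.0% of the 9348 tested genes were called), and the smallest adjusted p of a member was 0.61. At an unadjusted p under 0.05, 3 members were higher in the labelled knockout libraries (Mrps34, Mrpl54 and Mrps18a, 5.45% beside 5.55% of all tested genes) and 0 were lower (beside 2.1%). The share of higher members was near that of the whole table. The SE of a member's log2 difference ran from 0.37 to 0.87.

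**Figure D1:**
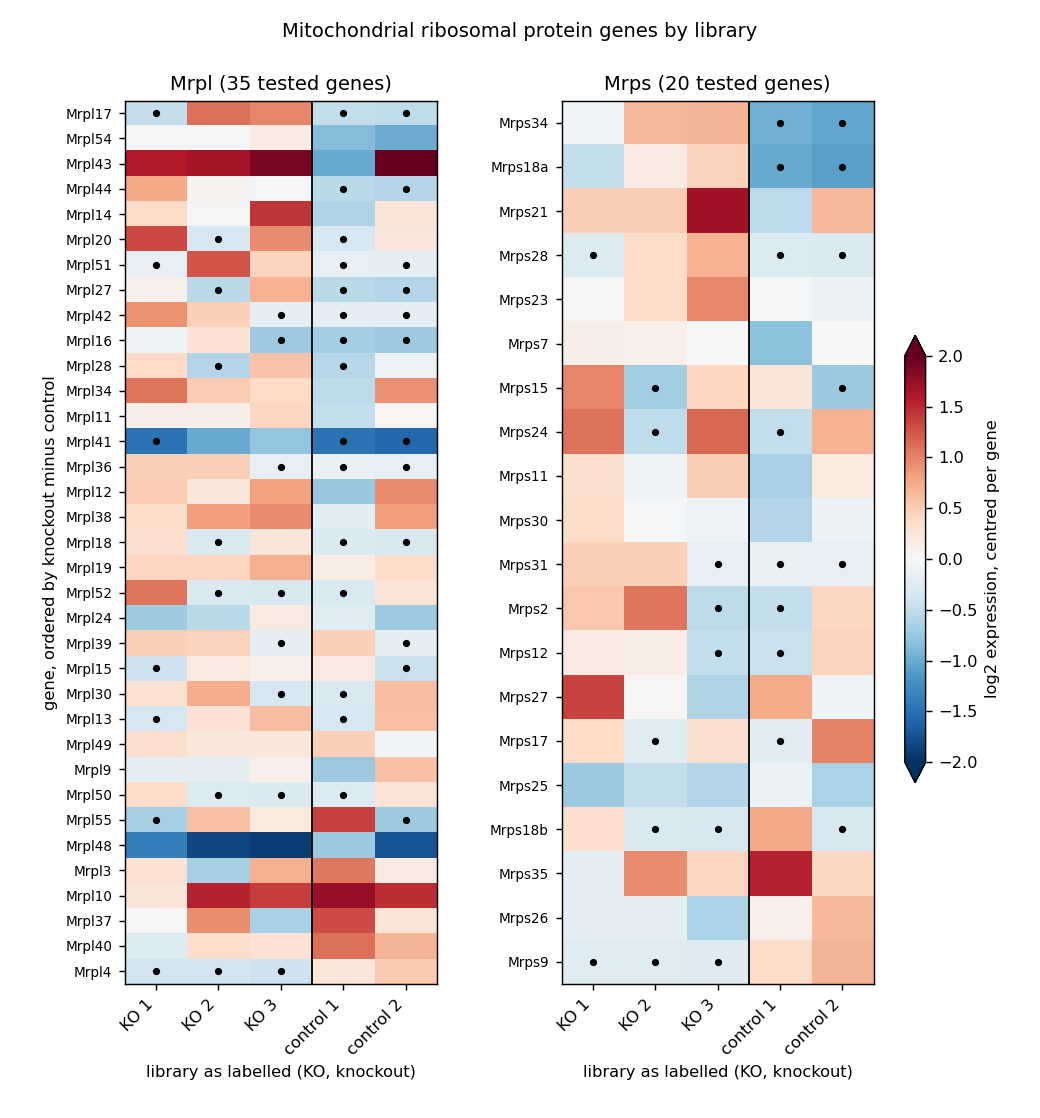
Log2 expression, centred per gene, of the 35 tested Mrpl and 20 tested Mrps genes (rows, ordered by labelled knockout minus control) in the 5 libraries (columns), with a black dot where a gene was recognised at its 0-read value. Dots are most frequent in control 1 (23 genes) and control 2 (18 genes), and the colour scale ends at 2 on either side of 0.

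The difference was above 0 in 38 of 55 members (69.1%, beside 59.9% of all tested genes). Its median was 0.40, beside 0.13 for all tested genes. Both values depend on the filter: without the 15 members whose direction it sets, an exclusion chosen after the data were seen, 25 of 40 were above 0 (62.5%, beside 53.3% of 7936 genes) with a median of 0.12 (beside 0.04). With no filter the median was 0.21 for Mrpl and 0.35 for Mrps, beside 0.01. Every labelled knockout library lay above both controls in 13 members (23.6%, beside 17.3%), and below both in 4 (7.27%, beside 7.1%). In 4 of the 13, a labelled knockout library shared the 0-read value with a control, which leaves 9 (16.4%, beside 14.0%). These counts depend on the filter too. The 9 include Mrps34, Mrps18a and Mrpl44, and the 4 below include Mrpl4 and Mrps9, whose direction it sets. When each library was centred on its median over tested genes, the counts became 4 above (7.27%, beside 8.35% of all tested genes) and 5 below (9.09%, beside 13.5%). That centring moved the median of all tested genes from 0.13 to -0.12 and left the members at medians of 0.15 (Mrpl) and 0.18 (Mrps).

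**Figure D2:**
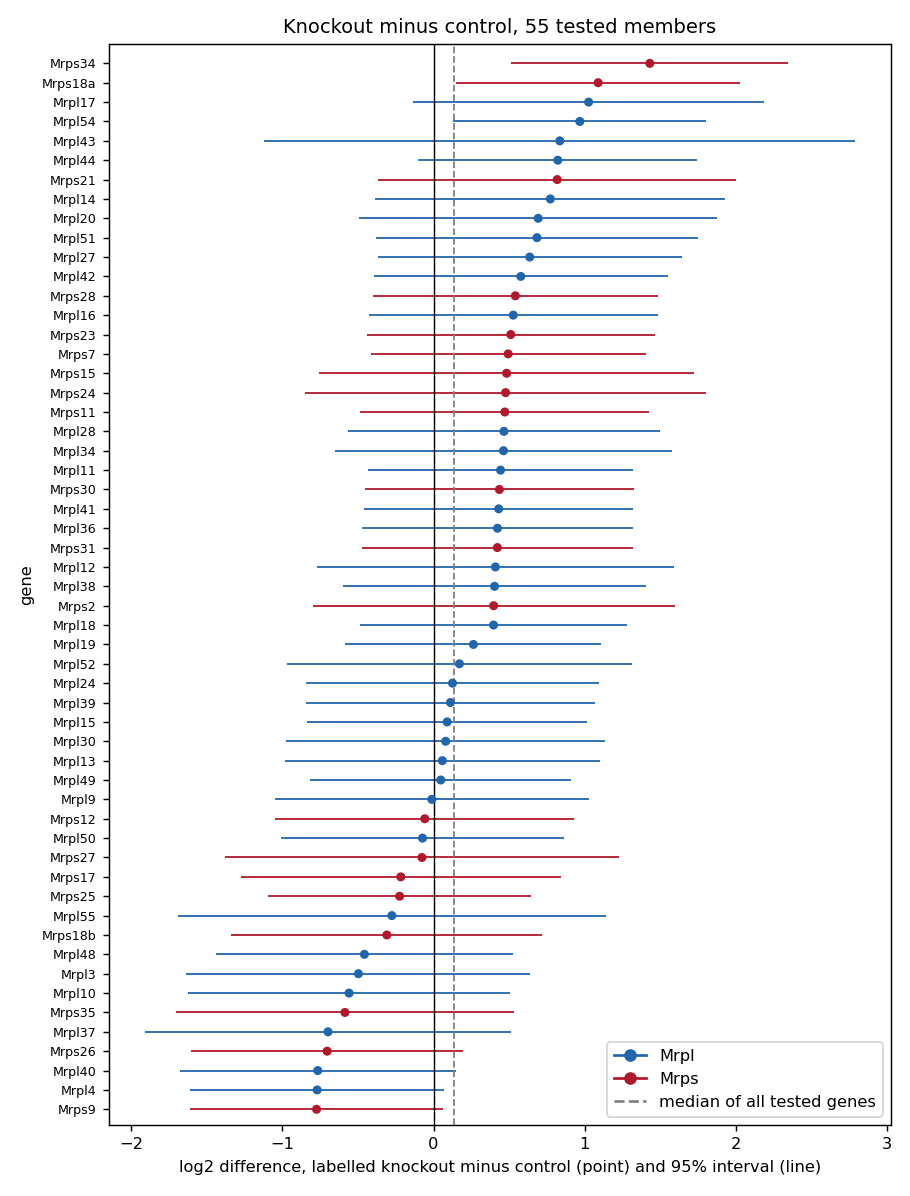
Log2 difference, labelled knockout minus control, of the 55 tested members (points, with lines for 95% intervals from limma, blue for Mrpl and red for Mrps), with the median of all tested genes as a dashed line at 0.13. The intervals of Mrps34, Mrpl54 and Mrps18a lie above 0 before adjustment (for Mrps34 and Mrps18a the filter allows this direction alone), and those of the other 52 members include 0.

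Among large-subunit proteins with a bacterial counterpart, 22 genes were tested, 17 higher (77.3%) and 5 lower, with a median difference of 0.40. Over all tested genes 59.9% were higher and the median was 0.13. The filter sets the direction of Mrpl16, Mrpl17, Mrpl18, Mrpl27, Mrpl36 and Mrps18a (higher) and of Mrpl4 (lower). Mrpl17 encodes a protein near the exit of the nascent chain tunnel. It was -0.47, 1.10 and 0.98 in the labelled knockout libraries and -0.47 and -0.51 in the controls. Library 1 and both controls were at the 0-read value, so the groups share it, and the difference was 1.03 (SE 0.52, limma adjusted p = 0.70). Mrpl14 encodes a protein at the interface between the subunits. It was 0.39, -0.02 and 1.43 against -0.61 and 0.26, with overlapping groups and a difference of 0.77 (SE 0.52).

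Mrpl4 encodes a protein that reaches into the tunnel through which the new chain leaves. All labelled knockout libraries were at its 0-read value (-0.39, -0.39 and -0.42), and the controls were at 0.22 and 0.52. Having passed the filter through the controls alone, it could only come out lower, and the difference was -0.77 (SE 0.37, 95% interval -1.61 to 0.07, limma adjusted p = 0.68). Mrpl10 encodes the base of the stalk that recruits translation factors. It was 0.25, 1.54 and 1.38 against 1.75 and 1.48, a difference of -0.56 (SE 0.48), with labelled knockout library 1 far below the others. Mrpl12, the stalk protein that binds to it, was 0.51, 0.20 and 0.81 against -0.75 and 0.95 (difference 0.41, SE 0.53), so control 1 stood apart and control 2 was the highest library.

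Among large-subunit proteins without a bacterial counterpart, 15 genes were tested, 11 higher (73.3%) and 4 lower, with a median difference of 0.40. The filter sets the direction of Mrpl41, Mrpl42, Mrpl44 and Mrpl51 (higher). Mrpl54 was -0.03, -0.04 and 0.17 in the labelled knockout libraries and -0.87 and -0.99 in the controls. Its groups were well apart, with a difference of 0.97 (SE 0.37, 95% interval 0.13 to 1.80, limma adjusted p = 0.62). Mrpl44 encodes a protein with a fold like that of a ribonuclease. It was 0.76, 0.05 and -0.03 against -0.54 and -0.58, both controls at the 0-read value and the direction thus fixed by the filter, a difference of 0.82 (SE 0.41, limma adjusted p = 0.70). Mrpl51 was -0.16, 1.26 and 0.45 against -0.16 and -0.18 (difference 0.68, SE 0.47), with labelled knockout library 1 and both controls at the 0-read value.

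Mrpl40 and Mrpl48 encode proteins of the central protuberance, the projection of the large subunit that faces the small one. Mrpl40 was -0.28, 0.36 and 0.29 against 1.10 and 0.67, lower in every labelled knockout library, with a difference of -0.77 (SE 0.41, limma adjusted p = 0.71). Mrpl48 was -1.37, -1.82 and -1.89 against -0.75 and -1.72. Its difference of -0.46 (SE 0.44) became 0.03 without control 1. Mrpl37 was -0.01, 0.93 and -0.64 against 1.31 and 0.27, which overlap (difference -0.70, SE 0.54). Mrpl43, chosen after its values were seen, had the widest controls of the tested members. It stood at -1.01 in control 1 and 2.76 in control 2, around 1.58, 1.67 and 1.88 in the labelled knockout libraries.

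Among small-subunit proteins with a bacterial counterpart, 10 genes were tested, 7 higher (70%) and 3 lower, with a median difference of 0.47. The filter sets the direction of Mrps28 (higher) and Mrps9 (lower). Mrps9 encodes a protein of the subunit's head whose tail reaches toward the peptidyl tRNA. It was at its 0-read value in every labelled knockout library (-0.24, -0.24 and -0.26) and at 0.37 and 0.68 in the controls, the same arrangement as Mrpl4, so that it too could only come out lower. The difference was -0.77 (SE 0.37, 95% interval -1.61 to 0.07, limma adjusted p = 0.68). Mrps21 was 0.50, 0.49 and 1.67 against -0.53 and 0.67, with control 2 above 2 labelled knockout libraries (difference 0.82, SE 0.53).

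Among small-subunit proteins classed as without a bacterial counterpart, 8 genes were tested, 3 higher (37.5%) and 5 lower, and the median difference was -0.15. The filter sets the direction of Mrps31 and Mrps34 (higher). Mrps18b (-0.31) is counted among the lower genes, while its paralogues Mrps18a and Mrps18c are classed as having a bacterial counterpart. Mrps34 had the smallest p of all members. It was -0.05, 0.66 and 0.69 in the labelled knockout libraries and -0.96 and -1.04 in the controls, which were both at the 0-read value. It passed the filter through the labelled knockout libraries alone and could only come out higher, with a difference of 1.43 (SE 0.41, 95% interval 0.52 to 2.35, unadjusted p = 0.0061, limma adjusted p = 0.61). Mrps26 was -0.17, -0.18 and -0.63 against 0.10 and 0.65, lower in every labelled knockout library (difference -0.70, SE 0.40, limma adjusted p = 0.74). Mrps35 was -0.20, 0.95 and 0.43 against 1.54 and 0.42, which overlap (difference -0.59, SE 0.50).

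A few symbols do not match the place of the protein. Mrps18a and Mrps30 encode proteins found in the large subunit, and the Mrps36 product is a subunit of the oxoglutarate dehydrogenase complex and not of the ribosome. Mrps18a was -0.48, 0.17 and 0.46 in the labelled knockout libraries and at the 0-read value in both controls (mean -1.04). Like Mrps34 it could only come out higher, and the difference was 1.09 (SE 0.42, 95% interval 0.15 to 2.03, limma adjusted p = 0.62). Its paralogues, which encode small-subunit proteins, had other patterns: Mrps18b was above its 0-read value in labelled knockout library 1 (0.33) and control 1 (0.75), with a difference of -0.31 (SE 0.46) that became 0.23 without control 1. Mrps18c was above it in control 2 alone (0.13). Mrps30 was 0.37, -0.03 and -0.10 against -0.59 and -0.12, a difference of 0.44 (SE 0.40).

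The order of the Mrpl and Mrps medians depended on the libraries, and the size of their gap also on the filter. The median difference was 0.40 over 35 Mrpl genes and 0.43 over 20 Mrps genes, a gap of -0.03. The Mrpl median minus the Mrps median of expression, taken in each library, had a pooled SD within groups of 0.06. This SD is not an error of the gap, which comes from differences per gene. The gap was 0.05 without labelled knockout library 1, 0.08 without control 1 and 0.06 without control 2. With no filter the gap was -0.14, and the SD described above was 0.03. More Mrpl genes were higher (26 of 35, 74.3%) than Mrps genes (12 of 20, 60.0%), beside 59.9% of all tested genes. These counts and the medians depend on the filter. It allows 9 Mrpl genes (25.7%) and 4 Mrps genes (20%) to be higher only, beside 14.6% of all tested genes. It allows 1 Mrpl and 1 Mrps gene to be lower only. Grouping by place in the ribosome, with Mrps18a and Mrps30 counted as large subunit, gave medians of 0.40 over 37 genes and 0.41 over 18 genes.

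**Figure D3:**
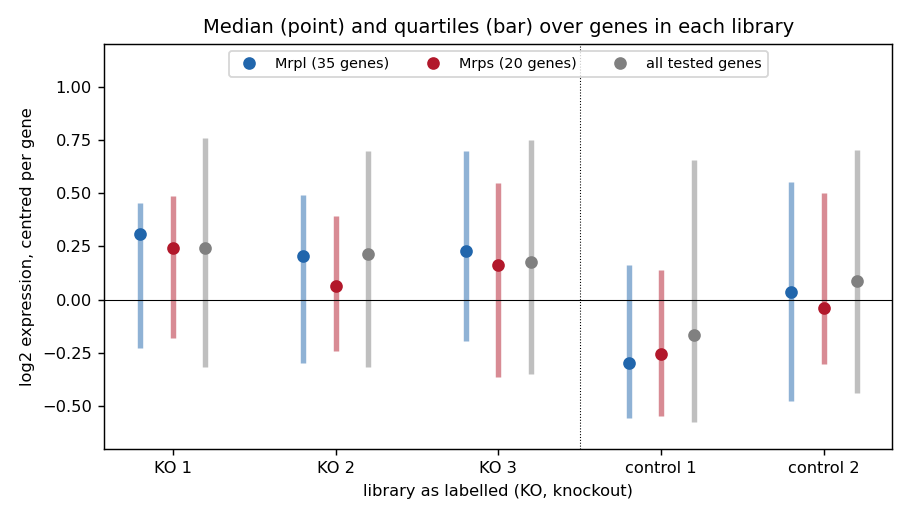
Median (points) and quartiles (bars) of log2 expression, centred per gene, over the tested Mrpl (blue), Mrps (red) and all tested genes (grey) in each of the 5 libraries. The Mrpl median is 0.31, 0.20 and 0.23 in the labelled knockout libraries and -0.30 and 0.04 in controls 1 and 2, and the Mrps median is -0.25 in control 1.

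The family's distance from the controls was smaller without control 1. Over all 55 tested members the median was 0.31, 0.15 and 0.23 in the labelled knockout libraries, -0.30 in control 1 and -0.02 in control 2. The same medians over all tested genes were 0.24, 0.21, 0.18, -0.16 and 0.09. Without control 1 the median difference was 0.23 for Mrpl and 0.14 for Mrps, beside 0.11 for all tested genes. Labelled knockout library 3 was the highest library for 17 members (30.9%, beside 20.7% of all tested genes), library 1 for 14 (25.5%, beside 24.4%) and library 2 for 5 (9.09%, beside 16.1%). Control 1 was the highest for 11 (20.0%, beside 20.7%) and control 2 for 8 (14.5%, beside 18.1%).

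**Figure D4:**
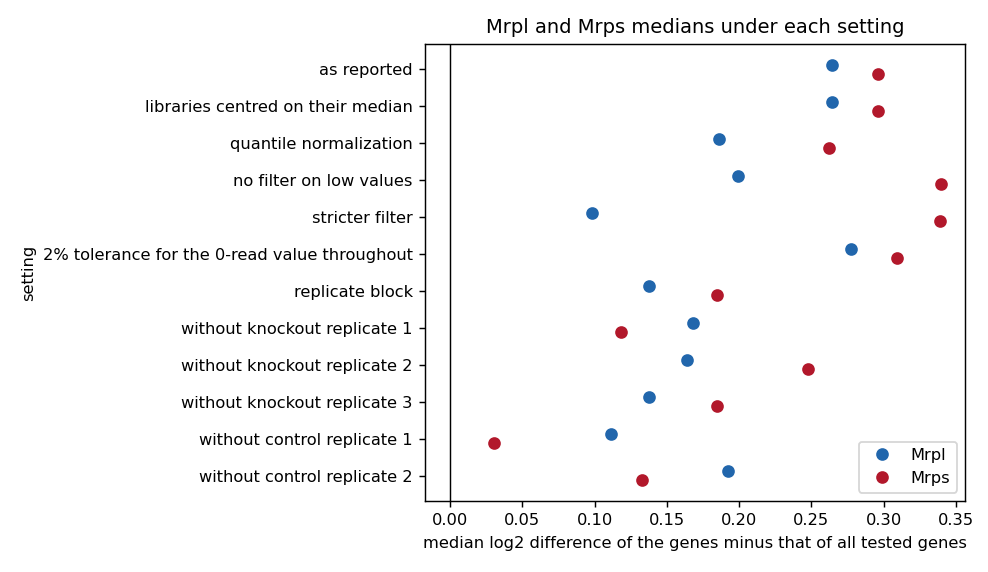
Median log2 difference of the Mrpl (blue) and Mrps (red) genes minus that of all tested genes, under the reported setting and each alternative. The points move from 0.26 and 0.30 as reported to 0.11 and 0.03 without control replicate 1.

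Several members share exon sequence with a neighbour, which matters because the library kit does not mark strand. In the GENCODE vM21 annotation of GRCm38, 18 of the 55 tested members share exon bases with another protein-coding gene, 8 of them over 10% of their own exon bases. Mrps34 lies on chromosome 17 from 24895116 to 24897502 on the plus strand, and 1309 of its exon bases (63.4%) lie within exons of Mapk8ip3 on the minus strand. Mapk8ip3, a scaffold of the JNK kinase pathway, went the other way, at -1.32, -1.33 and -1.31 against 0.27 and -0.70 (difference -1.11). Mrpl14 shares 106 bases (11.2%) with Tmem63b on the other strand, which also went the other way (difference -1.11). Mrps25 had the largest shared part of the tested members, 4590 bases (69.8%) with Nr2c2 on the other strand. The differences were -0.22 for Mrps25 and 0.16 for Nr2c2. Mrpl19 shares 1962 bases (36.0%) with Gcfc2, whose difference was 1.58 beside 0.26 for Mrpl19. Both controls were at the 0-read value of Gcfc2, so the filter allows this direction alone for it. Reads from shared stretches cannot be assigned to either gene, and their share in these values was not tested.

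Some members also share a promoter region with a neighbour. With a start on the other strand within 500 bp, 16 of 76 members (21.1%) had a divergent protein-coding partner, beside 8.0% of 14401 coding genes and 9.5% of 8482 tested ones. The start of Mrpl54, on chromosome 10 from 81264713 to 81266934, lies 26 bp from that of Apba3, which was 1.23, -0.21 and 0.77 against -0.76 and 0.06 (difference 0.95, beside 0.97 for Mrpl54). The start of Mrpl40 lies 175 bp from that of Hira, whose difference was 0.18 beside -0.77 for Mrpl40. In the other two pairs with both genes tested, Mrpl51 and Ncapd2 had differences of 0.68 and 0.12, and Mrps18b and Ppp1r10 of -0.31 and 0.02. Partners' differences were close in 1 of these 4 pairs.

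Promoters were read for 67 members from the RefSeq table (GRCm38.p6, 250 bases before to 50 after the start) and searched on both strands for the letters known for NRF1 (GCGCA, any base, then GCGC), GABPA (CCGGAAG), YY1 (AAGATGGCG) and STAT3 (TTCCNGGAA). The GABPA letters were in 35.8% of members, beside 21.0% of tested genes and 16.6% of all genes not at 0 throughout. The NRF1 letters were in 17.9% (beside 12.2% and 9.62%), and the YY1 letters in 11.9% (beside 3.99% and 2.91%). The STAT3 letters were in 2.99%, that is in Mrpl30 and Mrpl50 (beside 1.47% and 1.47%), and 27 members had none of the 4. Mrps34, Mrpl54 and Mrpl4 are not among the 67. A match is a run of letters and not a measured binding site.

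The 120 bases before the start are shown, 5′ to 3′ on the gene's strand, for 3 members that were higher (Mrps18a, Mrpl44, Mrpl17), 2 that were lower (Mrps9, Mrps26) and the 2 with the STAT3 letters. Capitals mark the letters searched, and the sequences were chosen after the values and matches were seen. Mrps18a (chr17:46110884-46111003, plus strand) and Mrps26 (chr2:130563637-130563756, plus strand) hold the GABPA letters. Mrpl44 (chr1:79775898-79776017, plus strand) and Mrpl17 (chr7:105811088-105811207, minus strand) hold the NRF1 letters, and Mrps9 (chr1:42851113-42851232, plus strand) holds none that end before the start. Mrpl30 (chr1:37890357-37890476, plus strand) holds the STAT3 letters at 2 places around the NRF1 letters, and Mrpl50 (chr4:49521084-49521203, minus strand) holds them once.
Mrps18a: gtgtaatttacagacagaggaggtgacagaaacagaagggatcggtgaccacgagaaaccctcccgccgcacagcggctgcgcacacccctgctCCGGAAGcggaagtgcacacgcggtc
Mrpl44: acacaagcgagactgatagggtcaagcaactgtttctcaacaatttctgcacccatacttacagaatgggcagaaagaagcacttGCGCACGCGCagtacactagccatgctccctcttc
Mrpl17: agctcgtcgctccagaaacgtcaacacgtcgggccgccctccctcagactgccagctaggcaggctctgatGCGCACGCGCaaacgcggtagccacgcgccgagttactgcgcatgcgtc
Mrps9: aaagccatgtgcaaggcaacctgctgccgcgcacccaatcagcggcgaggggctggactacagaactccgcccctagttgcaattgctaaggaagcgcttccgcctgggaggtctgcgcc
Mrps26: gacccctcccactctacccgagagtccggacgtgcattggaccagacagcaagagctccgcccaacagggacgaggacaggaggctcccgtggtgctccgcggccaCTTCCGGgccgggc
Mrpl30: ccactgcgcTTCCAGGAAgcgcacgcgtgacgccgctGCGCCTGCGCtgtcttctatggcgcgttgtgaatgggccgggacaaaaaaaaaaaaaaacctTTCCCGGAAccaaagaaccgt
Mrpl50: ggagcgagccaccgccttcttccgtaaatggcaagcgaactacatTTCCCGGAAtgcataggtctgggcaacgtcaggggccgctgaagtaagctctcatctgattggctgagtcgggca

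The filter sets the direction of Mrps18a, Mrpl44, Mrpl17 and Mrps9. The sequences shown therefore do not relate the letters to a direction. With the STAT3 letters, Mrpl30 was 0.31, 0.72 and -0.33 against -0.31 and 0.61 (difference 0.08, SE 0.47), and Mrpl50 was 0.36, -0.28 and -0.30 against -0.27 and 0.28 (difference -0.07, SE 0.42). Both sets of groups overlap fully.

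Of 13 nuclear regulators of mitochondrial genes, 11 were tested, 7 higher and 4 lower, with 0 past the threshold in either direction. Nrf1, the regulator whose letters are given above, was 0.53, 0.22 and -0.26 in the labelled knockout libraries and 1.43 and 1.12 in the controls. The groups did not overlap, with a difference of -1.11 (SE 0.41, 95% interval -2.03 to -0.19, unadjusted p = 0.023, limma adjusted p = 0.61). Gabpb1, a subunit of GABP, was -0.60, 0.06 and 0.34 against -0.33 and -1.50, which overlap (difference 0.85, SE 0.49).

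The other genes of the mitochondrial translation system gave 0 genes past the threshold in either direction. The 7 mitoribosome proteins with other symbols were all tested, 5 higher and 2 lower, with a median difference of 0.23. Chchd1, a small-subunit protein, was 0.47, 0.47 and 1.11 against -0.18 and -0.20, both controls at the 0-read value (difference 0.88, SE 0.40, limma adjusted p = 0.65). Ptcd3, a small-subunit protein with RNA-binding repeats, was 0.79 higher (SE 0.51), and its labelled knockout library 1 shared the 0-read value with the controls.

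Of 27 listed assembly factors of this ribosome, 16 were tested, 9 higher and 7 lower, with a median of 0.04. Wbscr16 was 0.31, -0.21 and 0.17 against -1.08 and -1.16, both controls at the 0-read value, with a difference of 1.21 (SE 0.39, limma adjusted p = 0.61). Rpusd3, a pseudouridine synthase family member, was 0.90, 0.45 and 1.35 against -0.22 and -0.24, again with both controls at the 0-read value (difference 1.12, SE 0.41, limma adjusted p = 0.61). The direction of both, and that of Chchd1 and Ptcd3, is fixed by the filter as for Mrps34.

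Of 16 translation factors, 11 were tested, 7 higher and 4 lower (median 0.07). Slirp, which stabilises mitochondrial mRNAs, had a difference of 0.68 (SE 0.52) that became -0.01 without control 1, and Mtif2, the initiation factor that places the first tRNA, had one of -0.69 (SE 0.53). Of 23 aminoacyl-tRNA synthetases and related enzymes, 14 were tested, 12 higher (85.7%, beside 59.9% of all tested genes) and 2 lower. Their median was 0.12 (beside 0.13), with Kars at 1.01 (SE 0.47) and Iars2 at 0.80 (SE 0.45). Of 18 genes for transcription, replication and RNA processing in mitochondria, 8 were tested, 7 higher (87.5%, beside 59.9%) and 1 lower (median 0.23, beside 0.13). How many tested genes of this list and of the synthetases could only come out higher was not counted. The polyA polymerase Mtpap had a difference of 0.64 (SE 0.45). Its labelled knockout library 1 and both controls were at the 0-read value, so the filter allows this direction alone. The tRNA-processing nuclease Elac2 had a difference of 0.48 (SE 0.47), which became -0.13 without control 1. When libraries were centred on their medians, the medians of these and the preceding related lists lay between -0.21 and -0.02, beside -0.12 for all tested genes. Centring shifts the difference of every gene by the same amount. The direction of these lists thus depends on the scaling, while their place beside all tested genes does not. The 13 mRNAs of the mitochondrial genome were not analysed here.

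The family was set beside the cytosolic ribosome and the respiratory chain. Of 78 cytosolic ribosomal protein genes, 53 were tested, with a median difference of 0.25 that became -0.27 without control 1. Rpl10a was 0.88, 0.88 and 0.79 against -0.21 and -0.23 (difference 1.07, SE 0.37, limma adjusted p = 0.61), with both controls at the 0-read value, and Rpl18 had a difference of 1.21 (SE 0.50). Of 83 respiratory chain and ATP synthase genes, 64 were tested, with a median of 0.18 that became -0.07 with centred libraries (beside -0.12 for all tested genes). Ndufs8, a complex I subunit that carries iron-sulphur clusters, was 0.49, 0.92 and 0.59 against -0.75 and -0.81 (difference 1.45, SE 0.38, limma adjusted p = 0.61), again with both controls at the 0-read value, and Atp5e had a difference of 1.39 (SE 0.54). The share of tested genes with a difference above 0 was 69.1%, 67.9% and 65.6% in the mitochondrial ribosomal, cytosolic ribosomal and respiratory families, beside 59.9% of all tested genes, and 0 genes passed the threshold in either direction in any of them. These shares depend on the filter. It allows 23.6%, 13.2% and 14.1% of the tested genes of these families to be higher only, beside 14.6% of all tested genes.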

How the data were processed

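The authors deposited 1 table of log2 values per gene and library. Both the scale and the centring per gene are inferences from the values (-4.117 to 7.693). Per the labels, 200 ng of RNA per library with an integrity number over 8 went into a polyA kit that does not mark strand, and of 286 M reads of 40 bases over the series 274 M (95%) could be placed on GRCm38/mm10. TopHat2 2.0.13 and, without its role, DESeq2 are named in the submitters' processing notes. For the counter and its annotation, nothing is given in the sources used here. Whether they shrink differences of genes with few reads is not stated. Columns were matched to samples by the description field.

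A gene's 0-read value was found from a fixed pattern across libraries, with a tolerance of 2% of the span (8% for 4 or 5 libraries). Left out were genes at 0 throughout, genes at the 0-read value in 4 or 5 libraries and 27 names that had become spreadsheet dates. Every tested gene is thus above that value in 2 libraries or more, as far as it was recognised. The rule was loosened in 2 steps from 2% throughout, the last after results had been seen, because genes with a slightly shifted pattern had been kept. Tested genes went from 9675 to 9348, and the same 55 members were tested under the first and the last version.

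The test was limma 3.58.1 (R 4.3.3) on the values as deposited, ~ group, with Benjamini-Hochberg adjustment over all tested genes and a threshold of 0.05. It was tested on simulated data. SE and 95% intervals come from limma, and replicates are separate pools. Python 3.11.15 with pandas 2.3.3 and numpy 2.4.6 made the summaries, and matplotlib 3.10.9 the figures. The members and lists were chosen with earlier results of these data known. Named genes are Stat3 and Cx3cr1, the 8 members with the smallest p in each direction, 5 members whose role needs stating (Mrps18a, Mrps18b, Mrps18c, Mrps30, Mrps36) and the 2 genes with the smallest p in each related list. Mrps14, Mrpl32, Mrpl12, Mrpl43, Mrpl19, Mrps25, Mrpl30, Mrpl50 and the neighbouring genes were chosen after their values were seen. The same holds for the 4 promoter motifs and the 500 bp window, for which a single set was tried.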

Additional observations from a re-analysis of the deposited data

How the results depend on the processing

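In all, 0 members passed the adjusted threshold in either direction under each alternative: libraries centred on their median, quantile normalization, no filter, a stricter filter (at least 4 libraries above the 0-read value), a 2% tolerance for the 0-read value throughout (added after the data were seen), limma with trend and robust estimation, the replicate block and each library left out. The smallest limma adjusted p of a named gene was 0.062, for the cytosolic ribosomal gene Rpl10a with no filter. Among named members it was 0.145, for Mrpl54 with no filter. Deviations from the group means were hardly correlated between same-numbered libraries (0.002 and -0.067). This cannot tell whether such libraries were processed together, which the labels do not say. Under the replicate block 0 members passed, with medians of 0.29 (Mrpl) and 0.34 (Mrps). The replicate block leaves out labelled knockout library 3, so its differences are the same as those without that library. Members whose groups do not overlap numbered 13 above and 4 below as reported, 4 above with centred libraries (7.27%, beside 8.35% of all genes), 4 above under quantile normalization (7.27%, beside 10.2%), and 6 above and 2 below with the stricter filter (24.0% and 8.0%, beside 14.9% and 9.54%). The 13 and 4 as reported include members whose direction the filter sets. With a library left out they numbered 14 (25.5%, beside 21.5%) to 26 above (47.3%, beside 41.5%) and 4 (7.27%, beside 10.2%) to 14 below (25.5%, beside 23.6%). The Mrpl median of 0.40 became 0.15 centred, 0.18 quantile-normalized, 0.21 without a filter, 0.19 with the stricter one and 0.23 to 0.50 with a library left out. The Mrps median of 0.43 became 0.18 centred, 0.25 quantile-normalized and 0.14 to 0.44 with a library left out. Their gap of -0.03 became -0.14 without a filter, -0.24 with the stricter one and -0.084 to 0.081 with a library left out. Centring gave a median of -0.12 for all tested genes. Beside it, the related lists were at -0.066 for the respiratory chain, -0.016 for other mitoribosome proteins, -0.18 for translation factors, -0.13 for aminoacyl-tRNA synthetases, -0.21 for assembly factors, -0.016 for mitochondrial DNA expression and -0.084 for nuclear regulators. Quantile normalization gave -0.016 for the respiratory chain, -0.052 for synthetases, -0.10 for assembly factors and -0.037 for nuclear regulators, beside -0.0081 for all tested genes. The stricter filter gave -0.14 for other mitoribosome proteins, 0.59 for synthetases and -0.44 for assembly factors, and the replicate block -0.028 for translation factors and -0.011 for assembly factors. With a library left out, the ranges were -0.27 to 0.68 for cytosolic ribosomal proteins, 0.019 to 0.54 for the respiratory chain, 0.05 to 0.46 for other mitoribosome proteins, -0.028 to 0.18 for translation factors, 0.055 to 0.48 for synthetases, -0.011 to 0.41 for assembly factors, -0.11 to 0.60 for mitochondrial DNA expression and -0.27 to 0.31 for nuclear regulators. The count that follows includes both the replicate block and the fit without labelled knockout library 3, although their differences are the same. Of 381 values of 36 named genes under alternatives, 373 kept their direction and side of the threshold. The other 8 turned. Stat3 became -0.084 centred and -0.025 quantile-normalized, and ran from -0.10 (without labelled knockout replicate 1) to 0.35 with a library left out. Without control replicate 1 it was -0.018, Mrpl48 became 0.029 (lowest -0.94 with a library left out), Mrps18b 0.23 (lowest -0.85), Slirp -0.0075 (highest 1.38) and Elac2 -0.13 (highest 1.09). Overlap was not counted under the replicate block, and list medians were not recomputed with trend and robust estimation, which leaves the differences as they are. The cause of these changes was not tested. With 3 libraries against 2 and unknown depth, differences of the size of the members' SE were not detectable.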
